A study of Mus musculus with 6 samples.

Results

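Potassium channel genes were taken as the protein-coding genes whose symbol begins with Kcn, which gave 67 of the 21776 genes measured and 67 of the 14970 protein-coding genes. The 3 rows of that name that are not protein coding were left out. The samples were adult mouse hearts, 3 from *Trdn-as* KO and 3 from WT animals, and each gave 1 strand-specific library of total RNA. The KO mice were homozygous for a polyadenylation cassette that was placed in the first exon of *Trdn-as* with Cas9 in embryonic stem cells, and the chimeras were backcrossed to C57BL/6. By the paper's account of these mice, the KO allele would be carried in every cell and not made by a Cre. The deposited description speaks of a deficiency in cardiomyocytes, and which holds for the sequenced hearts was not tested. WT hearts carried no such cassette. Age in weeks and sex are not given in the sources used here.

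*Trdn-as*, the non-coding RNA antisense to *Trdn*, was listed as AC157017.2 (ENSMUSG00000112707, chromosome 10, 33222345 to 33256418, minus strand). All positions refer to GRCm38. The values of *Trdn-as* were 1, 0 and 1 in KO and 690, 773 and 688 in WT hearts, so that it was at least 254-fold lower in KO against the mean floor of 3 reads per KO library. The values throughout are read counts divided by a size factor per library and rounded, called normalised read counts here. They summed to 3.13 to 3.25 M per library. The number of reads behind them was estimated at 3.13 to 3.62 M in KO and 2.59 to 3.46 M in WT libraries, and 3 reads, the floor used here, corresponded to a normalised read count of 2.61 to 3.77. WT replicate 1 had the fewest reads by this estimate. The floor covers counting error only.

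Potassium channels let potassium leave the cell and so bring the cardiac action potential back to rest and hold the resting potential. Voltage-gated pore-forming alpha subunits carry the transient outward and delayed rectifier currents, inward rectifiers hold the resting potential, and 2-pore channels carry background currents. Silent alpha subunits form no channel on their own but alter those they join, and accessory subunits such as *Kcne1* and *Kcnip2* change the gating or the surface number of the pores. Channels opened by calcium or sodium link repolarisation to those ions. The question put to these genes was whether the hearts without *Trdn-as*, whose mice were reported to have a longer QT interval, held more or less of their RNA.

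Of the 67 genes, 34 had a mean normalised read count of at least 10 and entered the test, and 33 did not. The 34 were 13 of 23 voltage-gated alpha subunits, 7 of 12 inward rectifiers, 6 of 13 accessory subunits, 3 of 6 2-pore channels, 3 of 7 calcium- and sodium-activated channels and 2 of 6 silent alpha subunits. They fell into 16 of 19 subfamilies. All 5 genes taken as markers of cardiac repolarisation, *Kcne1*, *Kcnq1*, *Kcnh2*, *Kcnj2* and *Kcnip2*, were among the 34.

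To set genes against each other, the normalised read count was divided by the length of all annotated exons in kilobases. On this scale the most abundant was *Kcnip2*, the accessory subunit of the fast transient outward channel, with a mean of 174 ± 13.7 (SD, n = 6) per kilobase. It was followed by *Kcnk3*, a background 2-pore channel, with 167 ± 12.5, and by *Kcnj3*, a subunit of the channel that acetylcholine opens in the heart, with 164 ± 5.67. The next were the silent alpha subunit *Kcng2* with 147 ± 12.4 and *Kcnj2*, which carries the resting inward rectifier current, with 137 ± 5.49. These 5 genes made up 49.1% of the summed level of all 67, which was 1608 per kilobase.

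After these came *Kcnj5*, the partner of *Kcnj3*, with 89.7 ± 10.7 per kilobase. *Kcnj11*, the pore of the ATP-sensitive channel of the cardiac sarcolemma, had 86.4 ± 6.50. *Kcnh2*, the pore of the rapid delayed rectifier, had 73.2 ± 4.68, and *Kcnd2*, a pore of the fast transient outward channel, had 70.6 ± 4.85. *Kcnj8*, the other pore of ATP-sensitive channels, completed the 10 most abundant with 59.5 ± 7.88, and the 10 together held 72.7% of the summed level. *Kcnq1*, the pore of the slow delayed rectifier, had 56.4 ± 4.46. *Kcne1*, the partner of *Kcnq1*, stood at rank 20 with 18.4 ± 9.69. This rank was taken over groups of unlike means, with 13.7, 26.1 and 33.9 per kilobase in KO and 16.2, 12.4 and 8.09 in WT hearts.

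**Figure D1:**
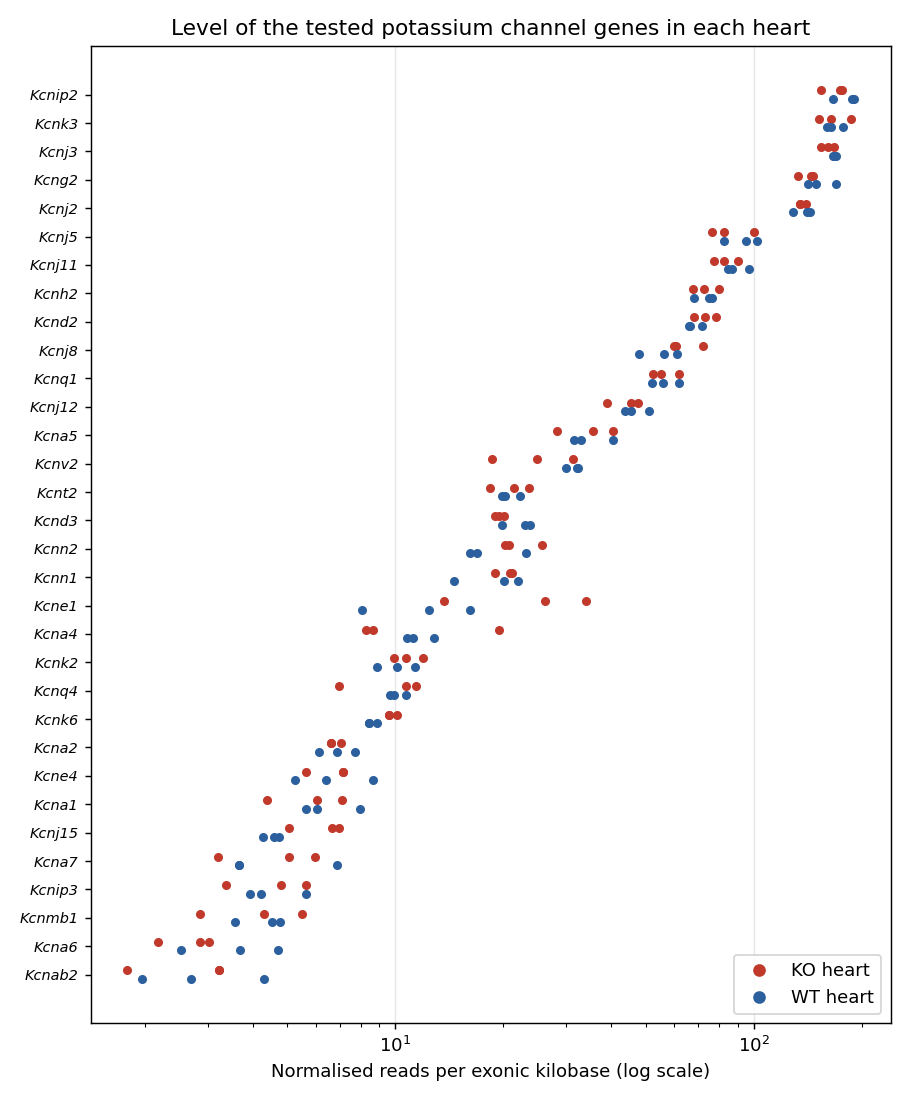
Normalised read count per exonic kilobase (log scale) of 32 of the 34 tested genes, ordered by their mean over 6 hearts, with 1 point per KO heart (red) and per WT heart (blue). The first 5 genes sit between 128 and 190.2 and apart from the rest, and the points of *Kcne1* spread from 8.09 to 33.9.

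Few neighbours in this order were set apart by their spread. The ranges over the 6 libraries did not overlap in 3 of the 33 neighbouring pairs, which were *Kcnj2* over *Kcnj5*, *Kcnq1* over *Kcnj12*, and *Kcnk6* over *Kcna2*. *Kcnip2* exceeded *Kcnk3* in 5 of 6 libraries and *Kcnk3* exceeded *Kcnj3* in 2 of 6, so that the order of the first 3 genes was not resolved. *Kcnh2* and *Kcnd2*, at ranks 8 and 9, held their order in 4 of 6 libraries. The median of the 34 genes was 20.7 per kilobase, against 25.8 for all 13753 genes tested, and *Kcnip2* stood at the 96.6th percentile of the tested genes, *Kcnj2* at the 94.2nd, *Kcnh2* at the 83.8th and *Kcnq1* at the 76.6th.

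The order also depended on the length it was divided by. With coding length alone, 8 of the 10 most abundant genes were shared with the order by exon length, and *Kcne1* was among those that entered, while *Kcnh2* and *Kcnj8* left. *Kcnj2* was then first with 580 per coding kilobase and *Kcne1* stood at rank 10 with 153, since its coding sequence spans 387 bases of 3214 exonic bases. *Kcnh2* stood at rank 13 with 98.6 per coding kilobase. *Kcne1* held that place through the KO hearts, being at rank 9 in KO with 204 and at rank 12 in WT with 102 per coding kilobase.

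By class, inward rectifiers held 36.7% of the summed level per kilobase, voltage-gated alpha subunits 22.9%, accessory subunits 13.6%, 2-pore channels 11.9%, silent alpha subunits 11.0% and calcium- and sodium-activated channels 3.93%. The total was 1597 ± 42.0 per kilobase in KO and 1619 ± 36.2 in WT hearts (SD, n = 3 each), so that the difference was smaller than either SD. Inward rectifiers summed to 584 ± 23.5 in KO and 596 ± 18.5 in WT, and voltage-gated alpha subunits to 369 ± 15.3 and 367 ± 8.92. The lowest KO to WT ratio of a class was that of the silent alpha subunits, 0.898, with 178, 174 and 152 per kilobase in KO and 203, 182 and 176 in WT hearts, which overlap. The highest was that of the calcium- and sodium-activated channels, 1.08, and its values overlapped as well.

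The 33 genes that were not tested had means of 0.333 to 9.83 and together held 1.5% of the summed level per kilobase, and no single value among them exceeded 17. Of these, 5 were above the floor of 3 reads in all 6 libraries, 22 in some, and 6 in none. The 6 were *Kcnrg*, *Kcne1l*, *Kcnc4*, *Kcng1*, *Kcnj9* and *Kcnj16*, whose values were all at or under the floor. *Kcnma1*, the pore of the large-conductance calcium-activated channel of smooth muscle, had values of 3, 3 and 7 in KO and 9, 0 and 11 in WT hearts, while its accessory subunit *Kcnmb1* had 12, 18 and 23 and 20, 19 and 15. *Kcne3*, another subunit of the family of *Kcne1*, had 3, 3 and 2 in KO and 6, 4 and 4 in WT hearts, near the floor throughout.

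In the comparison of KO with WT, 0 of the 34 genes had an adjusted p under 0.05 in limma, where 4 of the 13753 genes tested did, or 0.0291%, and limma-voom gave 0 as well. An unadjusted p under 0.05 was found for 3 genes, or 8.82%, against 5.74% of all genes tested. *Kcne1* and *Kcnj15* were on the higher side in KO hearts, where 2.94% of all genes were, and *Kcnv2* was on the lower side, where 2.8% were. The ranges of KO and WT hearts were apart for 2 genes, *Kcnk6* and *Kcnj15*, or 5.88%, against 9.07% of all genes, and both were higher in KO, where 4.64% of all genes were. Fitted log2 fold changes were above 0 for 14 genes and below 0 for 20, with a median of -0.01 against 0.00 over all genes tested. These differences are on the log2(value + 1) scale, which understates those of low genes.

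The precision allowed a statement on size. The 95% interval of the fold change lay within 1.5-fold in either direction for 25 of the 34 genes, or 73.5%, against 74.4% of all genes tested, and it did so for all of the 10 most abundant. Standard errors ran from 0.06 for *Kcnj3* to 0.36 for *Kcna7*, which had a mean of 10.3 in each group. By class, the intervals were within 1.5-fold for 6 of 7 inward rectifiers, 10 of 13 voltage-gated alpha subunits, 3 of 3 2-pore channels, 3 of 3 calcium- and sodium-activated channels, 2 of 6 accessory subunits and 1 of 2 silent alpha subunits.

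**Figure D2:**
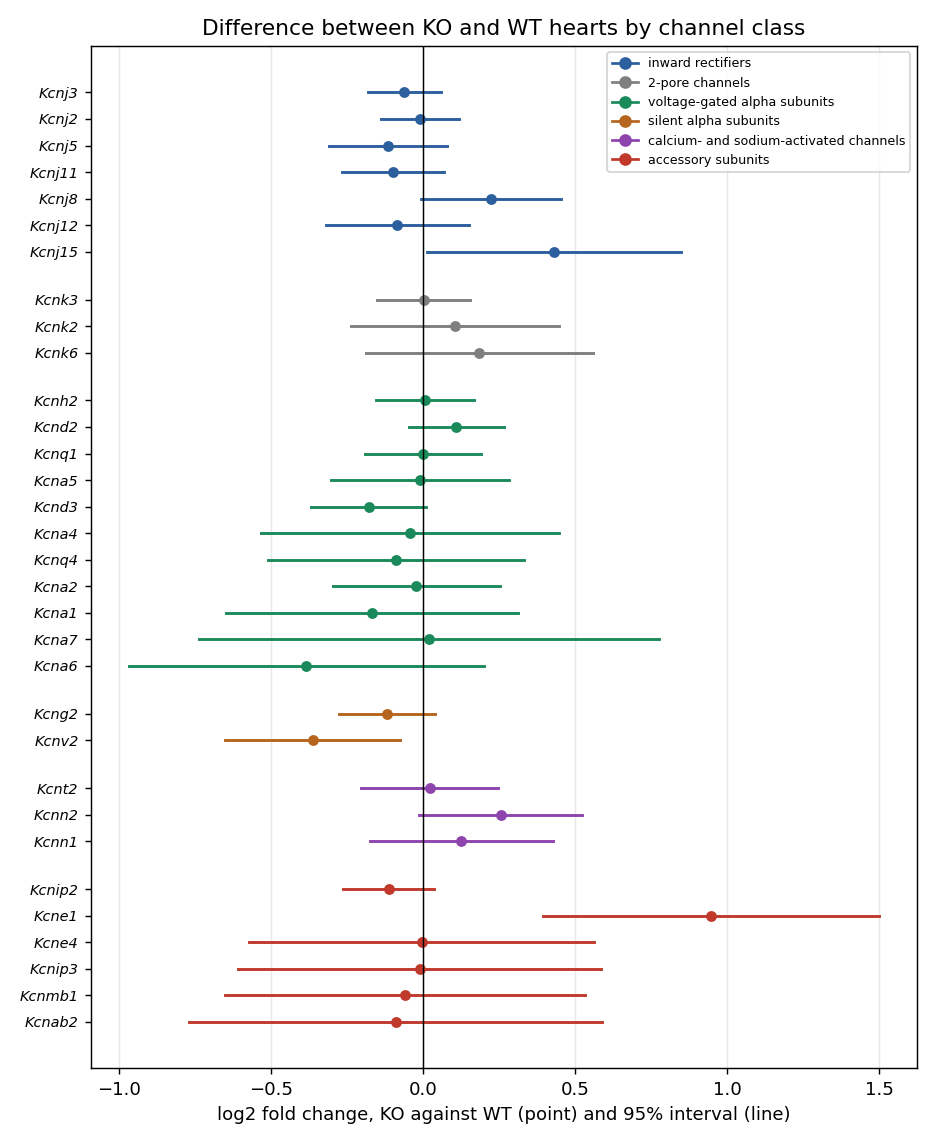
log2 fold change of KO against WT (points) with its 95% interval from limma (lines) for 32 of the 34 tested genes, grouped and coloured by class and ordered within a class by level. The intervals of *Kcne1* and *Kcnj15* lie above 0, that of *Kcnv2* below 0, and the other 29 shown include 0.

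The slow delayed rectifier is formed by *Kcnq1* and *Kcne1*. *Kcnq1* (ENSMUSG00000009545, chromosome 7, 143107254 to 143427042, plus strand) was measured at 225, 253 and 214 in KO and 253, 212 and 228 in WT hearts. The values overlapped fully, and the fold change of 0.999 had a 95% interval of 0.875 to 1.14 (limma adjusted p = 0.9997).

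*Kcne1* (ENSMUSG00000039639, chromosome 16, 92346001 to 92359468, minus strand) had 44, 84 and 109 in KO and 52, 40 and 26 in WT hearts. KO replicates 2 and 3 exceeded every WT heart, whereas KO replicate 1 lay between the WT values. The means were 79.0 ± 32.8 in KO and 39.3 ± 13.0 in WT (SD, n = 3 each). Its log2 fold change of 0.95 (SE 0.26, 95% interval 0.40 to 1.5) had a p of 0.00192 and an adjusted p of 0.688 in limma, and was the largest in size among the 34 genes. On the linear scale the interval was 1.32- to 2.83-fold.

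The hearts of 1 genotype differed in *Kcne1* by more than counting allows. Counting alone would give an SD of about 8.70 in KO and 6.60 in WT, and the variance within genotype was 10.4 times that of counting, at the 99.0th percentile of all genes tested. The highest value was 2.48 times the lowest among KO hearts and 2.00 times among WT hearts. Without KO replicate 1 the log2 fold change of *Kcne1* was 1.32 (SE 0.23) with an adjusted p of 0.0107 in limma, and in that fit 32 of 13753 genes, or 0.233%, passed. Leaving out the other libraries in turn gave 0.67 at the least, and the adjusted p ran from 0.0107 to 0.999 over all alternatives.

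Markers of atrial and conduction cells were set beside these values, since *Kcne1* is known from both. The summed counts of 10 conduction system markers were 579, 749 and 647 in KO and 563, 698 and 767 in WT hearts, and those of 7 atrial markers were 685, 880 and 576 and 619, 702 and 840. Both sums overlapped between the groups. The summed counts of 5 endothelial markers were 3711, 4221 and 4262 in KO and 4150, 4020 and 3727 in WT hearts. Those of 5 fibroblast markers were 2346, 2669 and 2686 and 2768, 2542 and 2465. KO replicate 1 was the lowest KO heart in both, and for leukocyte and for smooth muscle and pericyte markers. It was the highest for red blood cell and for Schwann and neuronal markers. Among conduction markers *Isl1* had values of 0 to 3 and *Cpne5* of 0 to 5. Among atrial markers *Nppa* had values of 286 to 337, and *Bmp10* had 0, 8 and 2 in KO and 1, 0 and 56 in WT hearts. Of the 7 atrial markers, 4 had log2 fold changes above 0 and 3 below 0. The part of tissue composition in the *Kcne1* values was not tested, and in whole tissue fewer cells of a type and less RNA per cell cannot be told apart.

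**Figure D3:**
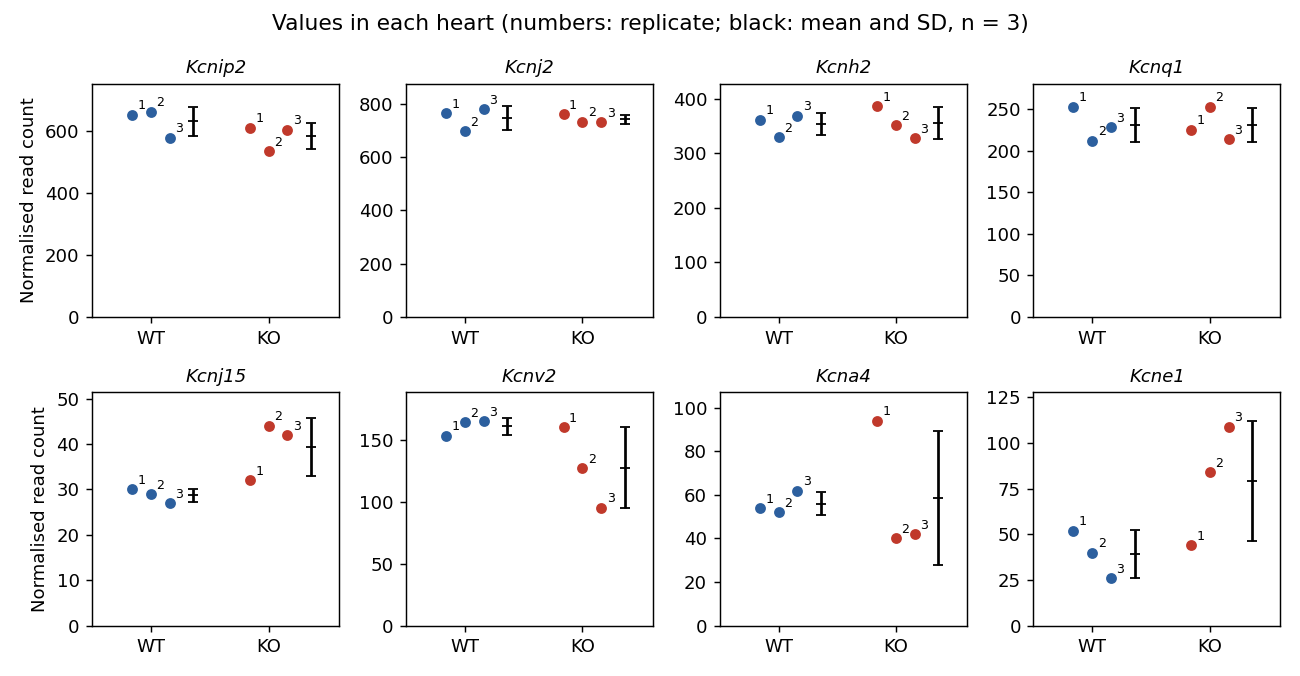
Normalised read counts of 8 genes in each WT heart (blue) and KO heart (red), with the replicate number at each point and the mean and SD (n = 3) in black. The values of *Kcnip2*, *Kcnj2*, *Kcnh2* and *Kcnq1* overlap between WT and KO hearts. *Kcne1* is lowest among KO hearts in replicate 1, and *Kcna4* and *Kcnv2* are highest there.

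The rapid delayed rectifier rests on *Kcnh2* (ENSMUSG00000038319, chromosome 5, 24319589 to 24351604, minus strand). It had 386, 352 and 328 in KO and 362, 330 and 369 in WT hearts, with the means 355 ± 29.1 and 354 ± 20.8 (SD, n = 3 each). The fold change had a 95% interval of 0.897 to 1.12 (limma adjusted p = 0.997). The other members of its subfamily, *Kcnh1*, *Kcnh7* and *Kcnh8*, were not tested and did not exceed 7 in any heart.

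For the fast transient outward current, *Kcnip2* (ENSMUSG00000025221, chromosome 19, 45792346 to 45816061, minus strand) had 610, 533 and 603 in KO and 652, 661 and 577 in WT hearts. The groups overlapped, and the log2 fold change was -0.11 (SE 0.07) with a 95% interval of 0.833- to 1.02-fold (limma adjusted p = 0.892). It was -0.18 without WT replicate 3 and -0.05 without KO replicate 2. Its pore *Kcnd2* had 377, 351 and 404 in KO and 341, 369 and 339 in WT hearts (log2 fold change 0.11, SE 0.07, limma adjusted p = 0.896). *Kcnd3*, the other pore, had 193, 187 and 182 in KO and 190, 221 and 228 in WT hearts (log2 fold change -0.18, SE 0.09, limma adjusted p = 0.851). None of the 3 genes of this channel passed the test.

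Within each heart, the subunits of a channel were also set against each other as a ratio of reads per exonic kilobase, which does not depend on the scaling of the library. The ratio of *Kcnip2* to *Kcnd2* was 2.40, 2.25 and 2.21 in KO and 2.83, 2.66 and 2.52 in WT hearts, and that of *Kcnd2* to *Kcnd3* was 3.63, 3.49 and 4.13 in KO and 3.34, 3.11 and 2.77 in WT hearts. Both sets of values were apart. With 3 hearts against 3 an exact permutation test, two-sided, cannot give less than p = 0.1, which both ratios reached. Of 7 ratios formed, these 2 did not overlap, and of all 561 pairs among the 34 tested genes 40, or 7.13%, did not.

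The ratio of *Kcne1* to *Kcnq1* was 0.249, 0.423 and 0.649 in KO and 0.262, 0.240 and 0.145 in WT hearts. KO replicate 1 again lay among the WT hearts. The ratio of *Kcnip2* to *Kcnd3* ran from 7.86 to 9.14 in KO and from 6.98 to 9.46 in WT hearts, and that of *Kcnj3* to *Kcnj5*, the channel opened by acetylcholine, from 1.66 to 2.11 and from 1.66 to 2.01. The ratio of *Kcnj11* to *Kcnj8* was 1.51, 1.37 and 1.07 in KO and 2.02, 1.43 and 1.51 in WT hearts, and that of *Kcnj2* to *Kcnj12* was 2.93, 2.96 and 3.46 and 3.09, 2.94 and 2.82. All 5 overlapped between the groups.

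**Figure D4:**
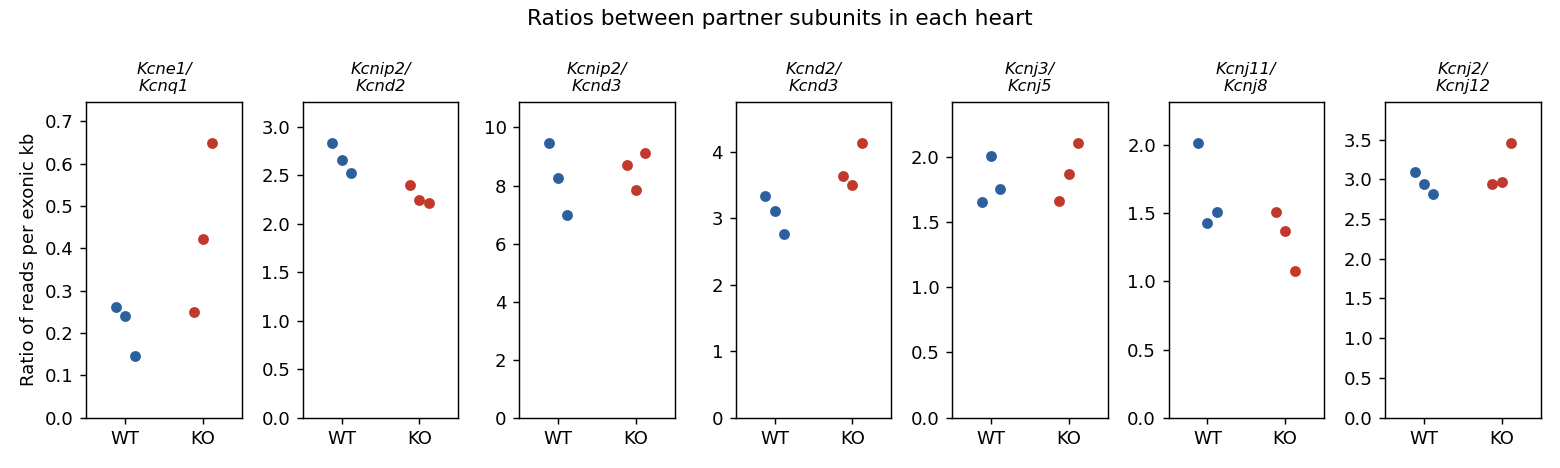
Ratio of normalised reads per exonic kilobase between partner subunits in each WT heart (blue) and KO heart (red), from 0 on each axis. The ratios of *Kcnip2* to *Kcnd2* and of *Kcnd2* to *Kcnd3* do not overlap between the groups and the other 5 do.

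Among inward rectifiers, *Kcnj2* (ENSMUSG00000041695, chromosome 11, 111066164 to 111076821, plus strand) had 761, 733 and 732 in KO and 765, 698 and 781 in WT hearts, and its fold change had a 95% interval of 0.908 to 1.09 (limma adjusted p = 0.995). *Kcnj12*, which joins *Kcnj2* in the resting current, had 131, 125 and 107 and 125, 120 and 140. *Kcnj3* had 869, 802 and 837 in KO and 882, 866 and 869 in WT hearts, which overlapped by 1 KO heart, with a log2 change of -0.06 (SE 0.06, limma adjusted p = 0.924). *Kcnj5* had 469, 386 and 357 in KO and 478, 387 and 445 in WT hearts (log2 fold change -0.12, SE 0.09, limma adjusted p = 0.912) and a variance 6.50 times that of counting. In both genotypes replicate 1 was the highest for *Kcnj5*, and its log2 fold change was -0.23 without KO replicate 1 and -0.03 without KO replicate 3.

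The ATP-sensitive channel pores gave a log2 fold change of -0.10 (SE 0.08, limma adjusted p = 0.912) for *Kcnj11*, with 331, 304 and 285 in KO and 355, 319 and 312 in WT hearts, and it was -0.16 without KO replicate 1 and -0.04 without WT replicate 1. *Kcnj8*, known from pericytes and smooth muscle, had 152, 154 and 184 in KO and 122, 155 and 143 in WT hearts (log2 fold change 0.22, SE 0.11, limma adjusted p = 0.851), or 0.30 without WT replicate 2 and 0.13 without WT replicate 1. The summed counts of 8 smooth muscle and pericyte markers beside it ranged from 3214 to 3581 in KO and from 3284 to 3714 in WT hearts.

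*Kcnj15* (ENSMUSG00000062609, chromosome 16, 95257558 to 95300260, plus strand), an inward rectifier known mainly from epithelia, had 32, 44 and 42 in KO and 30, 29 and 27 in WT hearts. All 3 KO hearts were above all 3 WT hearts, KO replicate 1 by 2 counts. The log2 fold change was 0.43 (SE 0.20) with a p of 0.0438 and an adjusted p of 0.851 in limma, and over the alternatives it ran from 0.35 to 0.57. Its unadjusted p was not under 0.05 with the replicate number as a block or after correction for read density (limma). The same held when any single library other than KO replicate 1 was left out.

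Of the voltage-gated alpha subunits beyond those above, *Kcna5*, a delayed rectifier subunit of atrium and mouse ventricle, had 102, 116 and 81 in KO and 94, 90 and 116 in WT hearts, with a 95% interval of 0.809- to 1.22-fold (limma adjusted p = 0.997). *Kcna4*, the subunit of the slow transient outward current, had 94, 40 and 42 in KO and 54, 52 and 62 in WT hearts. KO replicate 1 thus had more than any WT heart and the other 2 KO hearts less than any. The variance was 8.51 times that of counting (98.5th percentile of all genes tested). The log2 fold change was -0.04 (SE 0.24), while the means of the values were 58.7 in KO and 56.0 in WT. Without KO replicate 1, *Kcna4* was lower in KO with an unadjusted p under 0.05 in limma, as were or differed 8.26% of all genes at that p.

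Both tested silent alpha subunits had log2 fold changes below 0. *Kcnv2* (ENSMUSG00000047298, chromosome 19, 27322588 to 27337179, plus strand) had 160, 127 and 95 in KO and 153, 164 and 165 in WT hearts. KO replicates 2 and 3 were below every WT heart and KO replicate 1 lay among them. The log2 fold change was -0.36 (SE 0.14) with a p of 0.0157 and an adjusted p of 0.807 in limma, and it was -0.17 without KO replicate 3 and -0.54 without KO replicate 1. *Kcng2* had 432, 436 and 396 in KO and 507, 446 and 423 in WT hearts (log2 fold change -0.12, SE 0.08, limma adjusted p = 0.892), or -0.18 without WT replicate 3 and -0.05 without WT replicate 1.

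The 2-pore channels were led by *Kcnk3*, with 653, 741 and 605 in KO and 706, 635 and 652 in WT hearts and a 95% interval of 0.90- to 1.11-fold (limma adjusted p = 0.9997). *Kcnk6*, a weak background channel, had 40, 40 and 42 in KO and 35, 37 and 35 in WT hearts. These groups did not overlap, but the variance within genotype was 0.0349 times that of counting, lower than for nearly all genes (0.116th percentile). With the variance moderated towards that of other genes, the log2 fold change of 0.18 (SE 0.18) had a p of 0.313 in limma. Without a prior variance that followed the mean level, the SE was 0.07 and the adjusted p 0.872 in limma. In that fit the unadjusted p of *Kcnk6* was under 0.05 and that of *Kcnv2* was not. *Kcnk2*, a mechanosensitive background channel, had 49, 53 and 59 and 50, 56 and 44.

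Of the channels opened by calcium or sodium, *Kcnn2*, a small-conductance calcium-activated channel, had 192, 151 and 155 in KO and 121, 126 and 173 in WT hearts (log2 fold change 0.25, SE 0.13, limma adjusted p = 0.851). The log2 fold change of *Kcnn2* was 0.42 without WT replicate 3 and 0.15 without KO replicate 1. *Kcnn1* had 96, 87 and 97 and 67, 101 and 92. *Kcnt2*, opened by sodium, had 127, 148 and 163 in KO and 137, 139 and 154 in WT hearts (limma adjusted p = 0.995). All 3 log2 fold changes were above 0 and all 3 groups of values overlapped.

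The remaining accessory subunits were low. *Kcnmb1* had a log2 fold change of -0.06 (SE 0.28, limma adjusted p = 0.991), and *Kcnab2*, a cytoplasmic beta subunit, had 10, 18 and 18 in KO and 11, 24 and 15 in WT hearts (log2 fold change -0.09, SE 0.32, limma adjusted p = 0.987). *Kcne4*, an inhibitory subunit, had 19, 19 and 15 and 23, 14 and 17. At these levels a difference of 1.4-fold lay inside each of these 3 intervals.

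Relative to counting, the spread between hearts of 1 genotype was larger for some channel genes than for most genes. The variance within genotype, divided by that of counting, exceeded 3 for 8 of 34 genes, or 23.5%, against 10.9% of all genes tested. Among them were *Kcne1*, *Kcna4*, *Kcnj5*, *Kcnk3*, *Kcnn2*, *Kcnv2* and *Kcnip2*, and the median ratio was 1.45 against 1.09. The ratio rests on the estimated reads per library. At a given relative spread it also grows with the count, and the genes compared were not matched by level. KO replicate 1 was lowest among KO hearts for *Kcne1* and highest for *Kcna4*, *Kcnj5*, *Kcnn2*, *Kcnv2* and *Kcnip2*, and it was in the middle for *Kcnk3*.

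**Figure D5:**
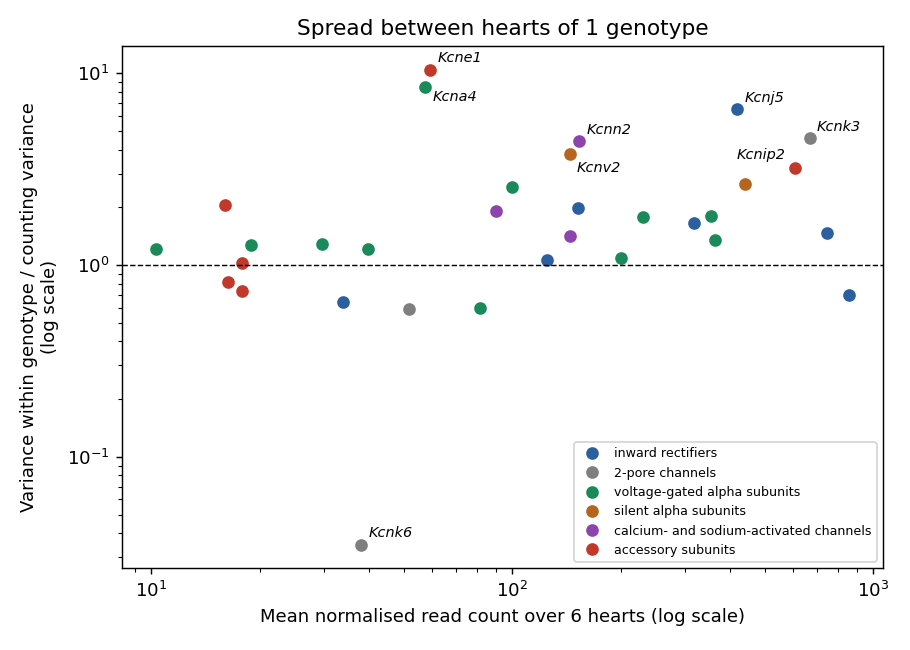
Variance between hearts of the same genotype divided by the variance that counting alone would give (log scale), against the mean normalised read count over 6 hearts (log scale), for 32 of the 34 tested genes coloured by class. The dashed line marks counting variance, *Kcne1* at 10.4 and *Kcna4* at 8.51 stand highest, and *Kcnk6* at 0.0349 stands lowest.

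Ventricular cardiomyocyte markers were set beside the channels. The log2 fold changes of 6 such markers were all below 0, from -0.16 to -0.14, and 5 of the 6 had an unadjusted p under 0.05 in limma (83.3%, against 2.8% of all genes that were lower in KO at that p), while 0 had an adjusted p under 0.05 (0.0291% of all genes). Their summed counts were 20002, 20817 and 21226 in KO and 25383, 22930 and 20817 in WT hearts, highest in WT replicate 1, the library with the fewest estimated reads. The channel genes had a median log2 fold change of -0.01, and what part the marker difference has in their values was not tested.

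Other genes of repolarisation were read from a list of 19 genes that regulate, anchor or transcribe these channels. Of these, 17 were tested, and *Dpp6* and *Dpp10* were not listed in the values used here. In limma 0 of 17 had an adjusted p under 0.05, 2 had an unadjusted p under 0.05 (11.8%, against 5.74% of all genes), and the values of 4 did not overlap (23.5%, against 9.07%). Log2 fold changes were above 0 for 7 and below 0 for 10, with a median of -0.03.

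*Irx3*, a transcription factor of the ventricular conduction system, had 302, 330 and 335 in KO and 254, 246 and 277 in WT hearts. All KO hearts were higher, with a log2 change of 0.31 (SE 0.08), a p of 0.00074 and an adjusted p of 0.518 in limma. Over the alternatives its log2 fold change ran from 0.28 to 0.36 and its adjusted p from 0.0911 to 0.999 (limma). *Irx5*, the family member that represses *Kcnd2* in the mouse ventricle, had 93, 74 and 67 in KO and 63, 59 and 68 in WT hearts (limma adjusted p = 0.851), and *Irx4* had 215, 167 and 191 and 235, 208 and 199.

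*Gnao1*, a G protein alpha subunit, had 220, 228 and 198 in KO and 249, 239 and 260 in WT hearts, and its log2 fold change of -0.21 (SE 0.08) had a p of 0.0206 and an adjusted p of 0.841 in limma. *Ank2*, the ankyrin that anchors transporters and channels, had 2140, 1990 and 2175 in KO and 2294, 2266 and 2234 in WT hearts. Both genes were lower in all KO than in all WT hearts, as 4.44% of all genes tested were.

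The values of 4 of the 5 most abundant partners per exonic kilobase overlapped between the groups, the exception being *Irx3* above. *Abcc9*, the sulfonylurea receptor that joins *Kcnj8* and *Kcnj11*, had 2380, 2411 and 2434 in KO and 2725, 2577 and 2270 in WT hearts (log2 fold change -0.06, SE 0.06, limma adjusted p = 0.931). *Chrm2*, the muscarinic receptor upstream of *Kcnj3* and *Kcnj5*, had 1478, 1504 and 1438 in KO and 1482, 1538 and 1554 in WT hearts (limma adjusted p = 0.944). *Cav3*, the muscle caveolin, had 179, 180 and 186 and 182, 162 and 184, and *Gnai2*, the G protein subunit that links *Chrm2* to the channel, had 493, 514 and 514 and 577, 524 and 463, with adjusted p of 0.973 and 0.977 in limma.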

How the data were processed

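The deposited values are normalised read counts rounded to whole numbers, treated here as a score and not as raw counts. The authors trimmed reads with Trimmomatic 0.39, aligned them to GRCm38 with STAR 2.6.1d, removed duplicates with Picard 2.21.1, dropped reads of several locations and ribosomal or mitochondrial reads, counted exonic reads by strand with featureCounts 1.6.5, and divided each library by its DESeq2 1.18.1 size factor. For that reason log2 values were tested in place of a count model. Size factors were estimated from the pattern that rounding leaves in values under 1000, and that of KO replicate 3 lay near 1 and was weakly determined.

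Genes with a mean of at least 10 were tested on log2(value + 1) with limma 3.58.1 in R 4.3.3, in which the prior variance followed the mean level. Tests were two-sided and p-values were adjusted by Benjamini and Hochberg over all 13753 genes, after a check on simulated data. Exon lengths came from GENCODE M21, which held all 67 genes, 48 with the same coordinates, and 0 of them shared over 10% of their exonic bases with another gene of that strand. Full values are given for the 5 marker genes, the 10 most abundant, the first tested gene of each subfamily, those with an unadjusted p under 0.05 and those whose groups do not overlap, and for partners the 5 most abundant and those with an unadjusted p under 0.05. Other genes were named with their values after these had been seen. The genes and lists were chosen with earlier results of these data known. The values of 3 genes are not reported here, although counts over the gene lists include them.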

Additional observations from a re-analysis of the deposited data

How the results depend on the processing

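Scaling, offset, filter, test, read density and libraries were varied in 15 alternatives. The count of channel genes with an adjusted p under 0.05 (limma) was 0 in all but 1: leaving out each library gave 0 to 1, the 1 being *Kcne1* without KO replicate 1. The count at an unadjusted p under 0.05 was 5 with no filter beyond a total of 1, where 5.29% of all genes had one, the added genes being *Kcnab3* (4, 9 and 9 in KO, 6, 2 and 2 in WT) and *Kcnk5* (4, 5 and 2 in KO, 1, 1 and 0 in WT), both near the floor. Leaving out each library gave 1 to 6, with 6 without KO replicate 1 (8.26% of all genes) and without WT replicate 3 (8.6%), and 1 without KO replicate 3 (3.75%). The median log2 fold change of the channel genes ran from -0.0561 without KO replicate 2 to 0.0244 without KO replicate 3. With coding length the 10 most abundant genes held 75.3% of the summed level. The causes of these shifts were not tested.

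Of 26 genes followed through every alternative, 14 kept their direction throughout, and 28 of 390 values reversed, each with an adjusted p of at least 0.905 (limma). Scaling to equal totals moved the median of all genes from 0.00 to 0.02 and gave log2 fold changes of 0.0131 for *Kcnj2*, 0.0214 for *Kcnq1* and 0.0118 for *Kcna5*. Correction for read density gave 0.0277 for *Kcnj2*, 0.0199 for *Abcc9*, 0.0236 for *Chrm2* and 0.00286 for *Gnai2*. It also moved *Kcnj3* from -0.062 to -0.0135, without a reversal. Leaving out each library gave ranges of -0.0783 to 0.0677 for *Kcnk3*, -0.0591 to 0.0218 for *Kcnj2*, -0.0559 to 0.0612 for *Kcnh2*, -0.0700 to 0.0654 for *Kcnq1*, -0.127 to 0.129 for *Kcna5*, -0.0617 to 0.117 for *Kcnt2*, -0.264 to 0.178 for *Kcnmb1*, -0.337 to 0.193 for *Kcnab2*, -0.0107 to 0.0807 for *Cav3* and -0.117 to 0.0413 for *Gnai2*. These ranges were -0.138 to -0.00622 for *Abcc9* and -0.0696 to -0.0319 for *Chrm2*, which reversed only with read density. Among genes that kept their direction, the ranges were 0.06 to 0.16 for *Kcnd2* and -0.09 to -0.03 for *Kcnj3*. For *Kcnk6* they were 0.16 to 0.21 and for *Gnao1* -0.25 to -0.15. Those of the other genes that kept their direction stand beside their values.

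Hearts of the same replicate number had correlations of 0.048, -0.068 and -0.028 between their deviations from the group means. That of replicate 1 was the highest with any heart of the other group, and that of replicate 2 the lowest. Whether the numbers pair the hearts cannot be decided from these values, since each group mean rests on few hearts. With the replicate number as a block, 2 channel genes had an unadjusted p under 0.05, *Kcne1* and *Kcnv2* (5.82% of all genes), and 0 an adjusted one (0.0291% of all genes, limma). Depth limits the low genes most, and the 95% interval of *Kcna7*, with a mean of 10.3 in each group, ran from 0.599- to 1.71-fold.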
